A study of Mus musculus with 8 samples.

Results

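Oxidative phosphorylation genes were followed as a set of 71 genes, taken by symbol from an array of mouse fat. The set held all genes whose symbol in the platform annotation begins with Nduf, Uqcr, Cox4, Cox5, Cox6, Cox7, Cox8 or Atp5. It also held Sdha to Sdhd, Cycs and Cyc1. Sdhaf1 and Sdhaf2 were not in the set and were counted in the list of assembly factors. Cox7a1 and Cox8b, the isoforms abundant in brown fat and muscle, were left out of the set. The brightest probe set stood for each gene, and 67 of the 71 were bright enough to be tested among 6128 tested genes of the whole table. Of the 67, complex I gave 27, complex II 4, complex III 8, complex IV 11 and complex V 14, and Cycs and the complex I assembly factors Ndufaf1 and Ndufaf4 made up the rest. The 4 that lay under the filter on low intensity were Cox5a, Cox8a, Ndufc2 and Ndufa12, whose highest intensities on any array were 87, 48, 75 and 51. The filter asked for an intensity above 171 on at least 2 of the 8 arrays, and 61 of the 67 genes exceeded 171 on all 8. Of the 67 probe sets, 49 have the plain suffix. Another 12, among them those of Uqcrc2, Uqcrb, Cox4i1, Cox6b2 and Atp5d, have a suffix (f) for probes that match several members of a gene family. Related transcripts may add to the signal of these 12. The rest have the suffix s (2), r (2), g (1) or i (1) and are not plain either, among them Sdhb (s), Atp5g1 (r) and Cox6b1 (r).

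Oxidative phosphorylation takes place in the inner mitochondrial membrane. Complex I takes electrons from NADH and complex II takes them from succinate, both pass them through ubiquinone to complex III, cytochrome c carries them to complex IV, which reduces oxygen, and complex V uses the proton gradient so formed to make ATP. White fat cells hold few mitochondria, brown fat cells hold many and can dissipate the gradient through the uncoupling protein UCP1, and β3-adrenergic stimulation is known to move white fat of rodents toward the brown pattern. The array measures RNA of subunits encoded in the nucleus, not protein, assembled complexes or respiration.

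RNA came from epididymal white adipose tissue, the fat pad beside the epididymis, of wild type mice and of mice labelled Ppara KO. PPARα, the product of Ppara, is a fatty acid receptor of the nucleus that switches on genes of fatty acid oxidation. In each genotype 1 array held a control, 1 held tissue 8 hours after 30 nmol of CL 316243, a drug that selectively activates the β3-adrenergic receptor of fat cells, and 1 array each held tissue after 3 days and 6 days of CL 316243 at 3 nmol per hour. The wild type control is described as without drug; the labels do not state whether a vehicle was given, which strain, sex or age the mice were, how the Ppara allele was made, or whether an array held 1 animal or a pool. The 8 hour arrays differ from the later arrays in dose and dose rate as well as in time. The p-values here measure how these arrays scatter, which takes in any difference in response between the genotypes. Part of the scatter may be technical. Values for a gene are given as intensities in the order control, 8 hours, 3 days and 6 days.

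Ppara itself had intensities of 395, 795, 604 and 1843 in wild type and 214, 254, 292 and 336 in the knockout, so that each wild type array was brighter than every knockout array. Where its probes lie relative to the targeted part of the gene is not given in the sources used here, so this is only a partial check of the labels. All 8 arrays had the same median intensity of 320. The deposited quantiles are nearly equal on all arrays, so equal brightness is no check on the quality of an array. Marker genes of neighbouring organs were bright on some arrays. Summed intensity of 7 measured pancreas genes (of 14 listed) was 73491 on the wild type control and 20596 on the knockout 8 hour array. It was 2574 to 3913 on the others. The sum of 6 measured epididymis and testis genes (of 14) was 126616 on the knockout control and 17161 on the knockout 8 hour array. It was 10812 on the wild type 6 day array and 1581 to 5486 on the other arrays. The 2 measured liver genes (of 6) summed to 5293 on the knockout 3 day array, with Alb at 4443, against 136 to 345 on the other 7 arrays. The ratio of 5′ to 3′ Gapdh control signal was 0.793 on the knockout control and 1.04 to 1.18 on the other 7 arrays. Both control arrays are therefore among those that stand apart in such markers, as are the knockout 8 hour and 3 day arrays. The wild type 6 day array stands apart less far, in the epididymis and testis genes. The comparisons of genotypes and of 6 days with 8 hours are also given without both controls.

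The set as a whole was brightest in wild type fat after 6 days of drug. Against the wild type control, the median difference of the oxidative phosphorylation genes on the log2 scale was -0.01 at 8 hours and 0.27 at 3 days. By 6 days it was 0.79, or 1.73-fold. In the knockout the same medians were -0.35, 0.00 and 0.16, the last of these 1.12-fold. Across all 6128 genes the medians were between -0.01 and 0.00 in all 6 comparisons. The wild type 6 day array was the brightest of the 8 arrays for 59 of the 67 genes (18.8% of all genes), and the knockout 8 hour array was the dimmest for 45 of the 67 (18.9% of all genes). These are single arrays compared with single arrays and have no replicate check. Each treated array of a genotype was set against the same control array, so the 3 differences within a genotype share that array.

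**Figure D1:**
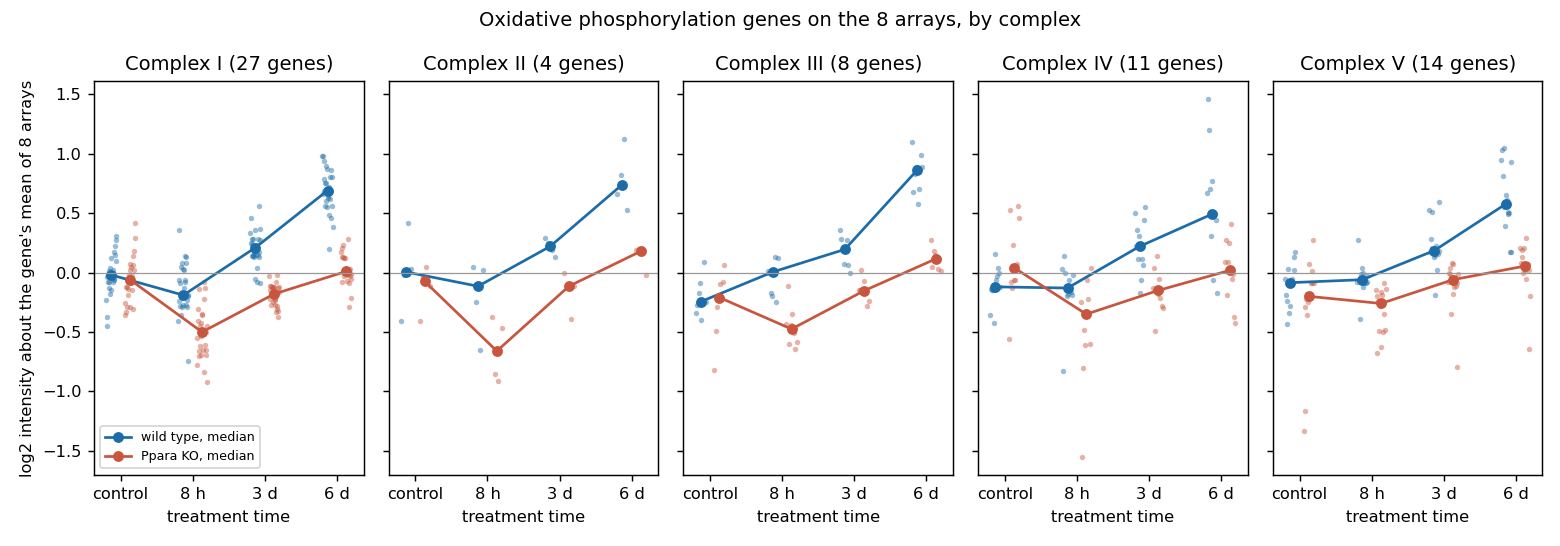
Log2 intensity of each oxidative phosphorylation gene on each of the 8 arrays, as the difference from that gene's mean over the arrays, for complexes I to V (small points are genes, large joined points are medians; blue, wild type; red, Ppara KO; 1 array per genotype and time). In wild type the medians at 6 days lie between 0.49 and 0.86, and in the knockout the medians at 8 hours lie between -0.66 and -0.26.

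Counted by a 1.5-fold difference from the control of the same genotype, 49 of the 67 genes were higher and 0 were lower in wild type at 6 days (11.7% of all genes were higher and 12% lower). At 3 days in wild type 12 were higher and 0 lower (13% and 14.8% of all genes). The higher share, 17.9% of members, was near that of all genes, and the lower share was under it. At 8 hours in wild type 2 were higher and 3 lower, below the 16.2% and 18.4% of all genes. In the knockout the counts were 4 higher and 19 lower at 8 hours (21.7% and 22% of all genes), 4 higher and 3 lower at 3 days (15.9% and 16.3%), and 6 higher and 3 lower at 6 days (17.4% and 18.2%). Between 3 and 6 days, 21 members were 1.5-fold higher in wild type (8.65% of all genes) and 0 in the knockout (2.33% of all genes). Intensity was in the order 8 hours, 3 days, 6 days for 54 members in wild type (26.5% of all genes) and for 53 in the knockout (24% of all genes). The knockout arrays thus went upward in the same order from a lower 8 hour level. The median step from 8 hours to 3 days was 0.29 on the log2 scale in both genotypes, and that from 3 to 6 days was 0.44 in wild type and 0.20 in the knockout.

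The same differences were tested with limma in a model with genotype and time as terms, fitted to the 8 arrays together, in which each time has 2 arrays, 1 of each genotype, and 3 residual degrees of freedom. The 2 arrays of a time are the 2 genotypes and not replicates. The residual therefore holds any difference in response between the genotypes as well as noise, so a change in 1 genotype alone enters the error. The Benjamini-Hochberg adjustment ran over the 6128 genes, with 0.05 as the threshold. At 8 hours 1 member passed as higher and 2 as lower than control (6.48% and 8.29% of all genes). At 3 days 0 members passed in either direction (0.441% of all genes higher and 0.702% lower), with 6 higher at an unadjusted p under 0.05, below the share of all genes (10.1%). At 6 days 0 passed (0.228% and 0.604%), with 26 members higher at an unadjusted p under 0.05 (8.08% of all genes); 62 of the 67 estimates were above 0, and their median was 0.47 against 0.00 over all genes. Between 8 hours and 6 days, 8 members passed as higher and 0 as lower (4.31% and 4.59% of all genes). Between 8 hours and 3 days 0 passed (1.99% and 2.4%), and the 7 members higher at an unadjusted p under 0.05 are near the share of all genes, 10.8%. Between 3 and 6 days 0 passed (0% of all genes), with 7 members higher at an unadjusted p under 0.05 (1.06% of all genes).

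Upstream sequence is shown for 5 of the members. Cycs, Sdha, Ndufv3 and Uqcr11 are among the members that passed a test, and Sdhd is the complex II partner of one that did. Other members that passed are not shown, among them Ndufa9 and Sdhb, whose motif matches lie after the start of transcription. RefSeq's table for GRCm38.p6 holds promoter windows for 53 of the 67 members. Each line gives the 250 bases before the annotated start of transcription, 5′ to 3′ on the gene's own strand. Their positions are chr6:50566570-50566819 (minus strand) for Cycs, chr13:74350241-74350490 (minus strand) for Sdha, chr9:50603850-50604099 (minus strand) for Sdhd, chr17:31519865-31520114 (plus strand) for Ndufv3 and chr10:80406822-80407071 (minus strand) for Uqcr11. Capitals mark the motif letters searched for on both strands: TGACGTCA, the cyclic AMP response element, in Cycs; GCGCA and GCGC with 1 free base between, the letters bound by NRF1, in Sdha and Sdhd; and CCGGAAG, the core bound by the ETS factor GABPA, as its reverse complement in Sdhd and directly in Uqcr11.
Cycs: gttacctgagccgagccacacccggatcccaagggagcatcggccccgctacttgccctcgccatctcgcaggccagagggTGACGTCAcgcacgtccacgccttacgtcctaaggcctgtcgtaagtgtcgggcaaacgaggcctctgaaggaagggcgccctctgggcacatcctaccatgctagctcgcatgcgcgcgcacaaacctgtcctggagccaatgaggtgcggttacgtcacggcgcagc
Sdha: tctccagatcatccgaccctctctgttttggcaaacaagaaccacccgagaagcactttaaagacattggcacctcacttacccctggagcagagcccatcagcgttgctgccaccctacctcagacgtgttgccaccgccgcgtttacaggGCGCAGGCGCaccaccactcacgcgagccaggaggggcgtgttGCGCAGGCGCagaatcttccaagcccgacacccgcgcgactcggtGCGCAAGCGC
Sdhd: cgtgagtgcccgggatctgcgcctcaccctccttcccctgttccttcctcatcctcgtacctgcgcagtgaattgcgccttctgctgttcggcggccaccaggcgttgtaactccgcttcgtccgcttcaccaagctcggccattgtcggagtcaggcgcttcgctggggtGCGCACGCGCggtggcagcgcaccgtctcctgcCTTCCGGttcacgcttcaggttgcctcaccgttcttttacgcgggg
Ndufv3: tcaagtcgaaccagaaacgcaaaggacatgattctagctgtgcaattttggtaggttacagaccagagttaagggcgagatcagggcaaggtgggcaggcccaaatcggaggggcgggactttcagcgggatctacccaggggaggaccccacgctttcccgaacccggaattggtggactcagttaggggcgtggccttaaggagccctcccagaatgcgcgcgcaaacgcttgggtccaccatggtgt
Uqcr11: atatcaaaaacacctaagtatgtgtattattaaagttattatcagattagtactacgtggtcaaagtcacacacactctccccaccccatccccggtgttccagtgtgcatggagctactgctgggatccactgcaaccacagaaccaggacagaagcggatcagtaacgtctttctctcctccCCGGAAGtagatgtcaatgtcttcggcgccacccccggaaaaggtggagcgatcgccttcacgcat

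The NRF1 letters stood in 13 of the 58 windows of members, 22.4%, against 9.92% of the windows of all tested genes and 4.6% of all windows of this length (300 bases, 250 before and 50 after the start). NRF1 and GABPA are known as activators of respiratory chain genes. The GABPA core was in 25.9% of members' windows against 16.6% of those of tested genes, and the YY1 letters AAGATGGCG were in 8.62% against 2.8%. The cyclic AMP response element was in the windows of 3 members, Cycs, Ndufa10 and Ndufb2, which is 5.17% of members' windows against 2.76%. The letters TCAAGGTCA, bound by oestrogen-related receptors, were found in Sdhd alone among the members, after its start (1.72% against 0.22%). The direct repeat of AGGTCA with 1 free base between, bound by PPAR with its partner RXR, was in 0 of the 58 windows and in 0.0157% of those of tested genes. Of the searched letters, Ndufv3 holds none in its window. The motifs do not overlap in the windows shown; a match is a description of letters and not a site shown to be in use.

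At 8 hours Cycs was the member that rose. It encodes cytochrome c, the mobile carrier between complexes III and IV. Its intensities were 3044, 7272, 6034 and 6632 in wild type and 2879, 5817, 3745 and 4188 in the knockout. Both 8 hour arrays were the brightest of their genotype and both controls the dimmest. The log2 change at 8 hours was 1.14 (SE 0.22, 2 arrays per time, 2.20-fold, limma adjusted p = 0.0266). At 6 days the estimate was 0.83 (SE 0.22, adjusted p = 0.142).

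Sdha and Ndufv3 fell at 8 hours, and the array of each genotype was under its control. Sdha encodes the flavoprotein of complex II that oxidises succinate, and read 3389, 1612, 2892 and 5502 in wild type and 2631, 1347, 1935 and 2848 in the knockout. The 8 hour array was the dimmest in each genotype, and the log2 change was -1.02 (SE 0.22, 0.49 of control, limma adjusted p = 0.0351). Ndufv3, an accessory subunit beside the NADH-binding site of complex I, read 4876, 2357, 4723 and 6817 in wild type and 5244, 2068, 3611 and 3884 in the knockout. Its log2 change was -1.20 (SE 0.25, 0.44 of control, adjusted p = 0.0318). The other 64 members did not pass at 8 hours, among them Cox6b2 with an estimate of -1.38 (SE 0.43, adjusted p = 0.0847). All 3 calls ended without any 1 of the control, 8 hour or 3 day arrays, where their adjusted p-values ran from 0.0519 to 0.182, and held without either 6 day array. Leaving out either 6 day array gives the same test of 8 hours against control, so that pair counts as 1 check, as does the 3 day pair. The calls also ended without the filter on dim probe sets and without the genotype term.

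**Figure D2:**
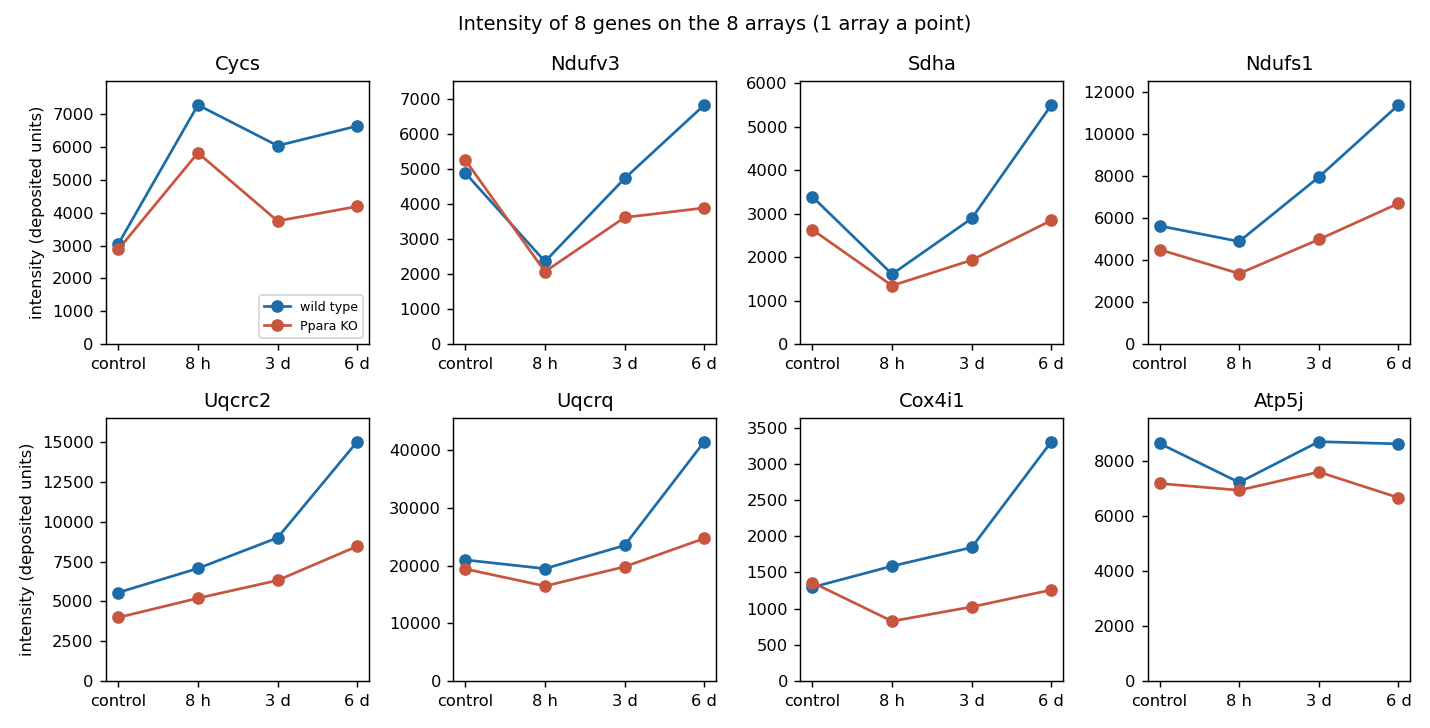
Deposited intensity of 8 oxidative phosphorylation genes at each time, each point 1 array (blue, wild type; red, Ppara KO; linear axes from 0). Cycs peaks at 8 hours at 7272 in wild type and 5817 in the knockout, Ndufv3 and Sdha are lowest at 8 hours in both genotypes, and Uqcrq, Cox4i1 and Ndufs1 are highest on the wild type 6 day array.

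At 8 hours the median of every complex was lower in the knockout than in wild type. The knockout medians against control were -0.49 for complex I, -0.59 for complex II, -0.27 for complex III, -0.40 for complex IV and -0.04 for complex V on the log2 scale, and the wild type medians were -0.12, -0.12, 0.31, 0.00 and 0.01. The genes of a complex spread over an SD of 0.35 to 0.64 in the knockout, and the ranges of the 5 complexes overlapped. Markers of other cells moved on the same arrays. The summed intensity of 10 measured adipocyte markers (of 12 listed) was 271407 in the wild type control and 126988 at 8 hours, and 238034 and 101308 in the knockout; 7 measured neutrophil markers (of 10) went from 1010 to 24825 and from 808 to 33080. Their part in the 8 hour values was not tested. In bulk tissue, fewer cells of a type and less RNA per cell cannot be told apart.

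Complex I, the NADH dehydrogenase, was represented by 4 core subunits and 23 accessory ones. At 6 days in wild type 19 of the 27 were at least 1.5-fold above control, with a median log2 difference of 0.71 and a range from 0.11 to 1.21. The core subunits had a median of 0.96 and the accessory ones of 0.67. In the knockout the median was 0.08, from -0.43 to 0.57, and 0 of 27 passed 1.5-fold in either direction.

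Ndufs1, the largest core subunit with iron-sulphur clusters, read 5627, 4884, 7946 and 11375 in wild type and 4502, 3358, 4979 and 6694 in the knockout. It was dimmest at 8 hours and brightest at 6 days in both genotypes, and between those times it rose by 1.11 on the log2 scale (SE 0.19, limma adjusted p = 0.0268). Ndufa9, an accessory subunit that joins the peripheral arm to the membrane arm, read 8282, 6926, 9255 and 16150 in wild type and 7778, 5178, 7437 and 9871 in the knockout. It rose by 1.08 from 8 hours to 6 days (SE 0.21, adjusted p = 0.0349). Ndufv3 rose over the same interval by 1.22 (SE 0.25, adjusted p = 0.0393), which in the knockout left it at 3884 against a control of 5244. Over that interval 19 of the 27 complex I genes were higher at an unadjusted p under 0.05 (13.7% of all genes), and these 3 passed after adjustment.

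Against control at 6 days the 3 largest estimates in complex I were Ndufa6, Ndufs1 and Ndufa8, and none passed. Ndufa6, an accessory subunit of the LYR motif family, read 2277, 2014, 3373 and 5273 in wild type and 2233, 1836, 2633 and 3017 in the knockout, an estimate of 0.82 (SE 0.24, limma adjusted p = 0.161). Ndufs1 had an estimate of 0.79 (SE 0.19, adjusted p = 0.125). Ndufa8, an accessory subunit of the membrane arm, read 3454, 6052, 5604 and 7410 in wild type and 3749, 3787, 4361 and 4456 in the knockout. Its wild type 8 hour array was already 1.5-fold above control and its knockout one was not, and the estimate at 6 days was 0.68 (SE 0.26, adjusted p = 0.246). At the other end, Ndufa7, an accessory subunit, read 17095, 12423, 13367 and 18449 in wild type and 17393, 10370, 12668 and 13720 in the knockout. Its infused knockout arrays stayed under the control, and the estimate at 6 days was -0.12 (SE 0.19, adjusted p = 0.792).

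All 4 genes of complex II, the succinate dehydrogenase, were measured. Sdha and Sdhb form the catalytic part, and Sdhc and Sdhd anchor it in the membrane. From 8 hours to 6 days Sdha rose by 1.43 on the log2 scale (SE 0.22, limma adjusted p = 0.0231), the lowest adjusted p of any member in that comparison. Sdhb, the iron-sulphur subunit, read 11202, 9537, 13509 and 20111 in wild type and 11084, 6328, 10488 and 13098 in the knockout, and rose by 1.06 (SE 0.22, adjusted p = 0.0378). In both genes the 8 hour array was the dimmest and the 6 day array the brightest of its genotype.

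Sdhd read 7276, 9983, 11817 and 15281 in wild type and 7279, 7467, 9674 and 11030 in the knockout. It was the complex II gene that did not dip at 8 hours on either array, and its estimate against control at 6 days was 0.84 (SE 0.20, limma adjusted p = 0.122). Sdhc read 13625, 13536, 14585 and 19211 in wild type and 12385, 9605, 12376 and 13184 in the knockout, with an estimate of 0.29 at 6 days (SE 0.19, adjusted p = 0.463). The 4 subunits therefore went separate ways at 8 hours, from 0.48 of control for Sdha to 1.37 for Sdhd in wild type, and were all above control at 6 days in both genotypes by their single arrays.

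Complex III, ubiquinol-cytochrome c reductase, was the complex with the highest wild type median at 6 days: 0.98 on the log2 scale, or 1.98-fold, with all 8 genes between 0.90 and 1.44. Its knockout median was 0.30, from -0.06 to 1.09. The wild type medians of the other complexes were 0.77 for II, 0.76 for V, 0.71 for I and 0.61 for IV, each with a range of genes that reached into that of complex III, so the order of the complexes is a description of this array.

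Uqcrc2, a core protein on the matrix side of complex III, read 5551, 7067, 8991 and 15028 in wild type and 3984, 5195, 6316 and 8458 in the knockout. Each time was brighter than the one before in both genotypes. Its estimate at 6 days against control was 1.26 (SE 0.19, 2.40-fold), just outside the threshold with a limma adjusted p of 0.0524, and from 8 hours to 6 days it rose by 0.90 (SE 0.19, adjusted p = 0.04). Uqcr11, a small subunit, read 10830, 8545, 10587 and 20148 in wild type and 9594, 6531, 8357 and 10959 in the knockout. It was the other complex III gene that rose from 8 hours to 6 days, by 0.99 (SE 0.22, adjusted p = 0.0495), while its 3 day arrays were under control in both genotypes.

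Uqcrb, a subunit near the ubiquinone site, read 10630, 12833, 15573 and 20533 in wild type and 9099, 11847, 11569 and 13295 in the knockout, with an estimate of 0.75 at 6 days (SE 0.20, limma adjusted p = 0.143). Uqcr10, a small membrane subunit, read 10401, 10390, 13299 and 20730 in wild type and 9559, 7686, 11854 and 13229 in the knockout, with an estimate of 0.73 (SE 0.21, adjusted p = 0.152). Cyc1, the cytochrome c1 that hands electrons to cytochrome c, read 21594, 27932, 30788 and 41598 in wild type and 21962, 17964, 22828 and 26153 in the knockout. Its 8 hour arrays lay on opposite sides of control, and the estimate at 6 days was 0.60 (SE 0.23, adjusted p = 0.252). A second, dimmer probe set of Cyc1 went the reverse way at 8 hours, with 3915 and 3385 in wild type and 3227 and 4018 in the knockout, and at 6 days it was 0.49 above control in wild type and 0.83 in the knockout on the log2 scale. Uqcrc1, the partner core protein of Uqcrc2, read 9020, 11639, 10712 and 19871 in wild type and 11205, 7161, 9096 and 10784 in the knockout. In wild type each drug array was above control and in the knockout each was under it, and the estimate at 6 days was 0.54 (SE 0.31, adjusted p = 0.414).

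**Figure D3:**
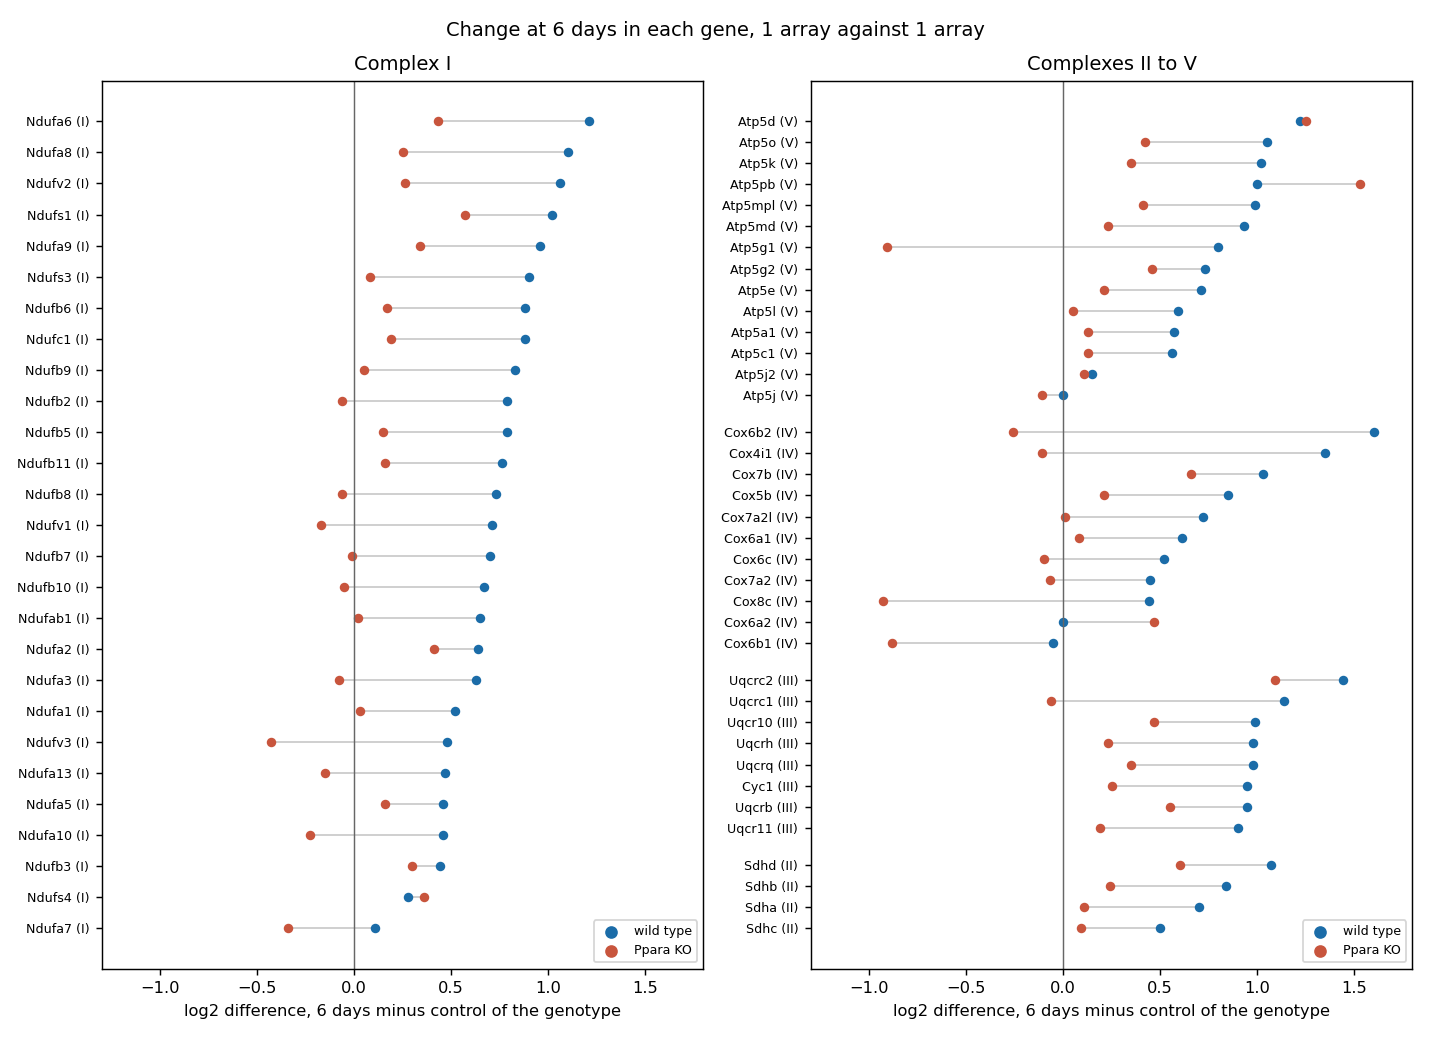
Log2 difference between the 6 day array and the control array of the same genotype for 64 genes of complexes I to V (blue, wild type; red, Ppara KO; a grey line joins the genotypes; 1 array against 1 array). All 8 complex III genes lie at or above 0.90 in wild type, and Atp5pb, Atp5d, Cox6a2 and Ndufs4 are the genes whose knockout point lies to the right of the wild type point (for Atp5d in 1 of its 4 probe sets).

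Complex IV, cytochrome c oxidase, had the widest spread between its genes in wild type at 6 days. Its wild type differences ran from -0.05 to 1.60, with a median of 0.61 and an SD between genes of 0.51, and 6 of the 11 genes were 1.5-fold above control. The knockout median was -0.07, from -0.93 to 0.66. Cox7b, a small subunit, had the largest estimate against control: it read 7738, 10148, 13984 and 15813 in wild type and 6705, 8319, 9072 and 10559 in the knockout, each time above the one before, and the estimate at 6 days was 0.84 (SE 0.20, limma adjusted p = 0.12).

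Cox6b2, an isoform known from testis, was the complex IV gene that rose from 8 hours to 6 days, by 2.05 on the log2 scale (SE 0.43, limma adjusted p = 0.0411). It read 454, 282, 582 and 1377 in wild type and 721, 133, 516 and 602 in the knockout, with the knockout 8 hour array under the floor of 171. Its probe set is one of the 12 that can match several family members. Cox8c, likewise an isoform known from testis, read 1667, 1464, 2251 and 2261 in wild type and 2446, 1096, 1374 and 1288 in the knockout, and its estimate at 6 days was -0.24 (SE 0.35, adjusted p = 0.761). Both were brighter on the knockout control than on the wild type control. The knockout control is the array with the epididymis and testis sum of 126616, against 3311 on the wild type control. The wild type 6 day array, the brightest for Cox6b2, had a sum of 10812. The part of such tissue in these 2 genes was not tested.

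Cox4i1, the ubiquitous form of subunit IV, read 1294, 1586, 1844 and 3305 in wild type and 1359, 825, 1023 and 1257 in the knockout. The wild type drug arrays were all above control and the knockout ones all under it. Its estimate at 6 days was 0.62 (SE 0.35, limma adjusted p = 0.401), and a second, dimmer probe set of the gene read 216 in the wild type control and 198 at 6 days, so the probe sets disagree. Cox6b1, the general partner of Cox6b2, read 210, 225, 335 and 203 in wild type and 314, 235, 186 and 121 in the knockout, close to the floor, with an estimate of -0.46 (SE 0.34, adjusted p = 0.517).

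Cox6a1 and Cox7a2 are the general or liver forms of subunits that also have a heart and muscle form, and Cox6c is a small subunit. Cox6a1 read 28261, 22264, 22524 and 43089 in wild type and 24238, 19772, 22276 and 25577 in the knockout (estimate 0.34, SE 0.23). Cox7a2 read 15312, 13370, 15582 and 20955 in wild type and 15638, 11826, 13415 and 14853 in the knockout (estimate 0.19, SE 0.20). Cox6c read 16954, 15859, 18636 and 24275 in wild type and 17806, 14908, 14975 and 16671 in the knockout (estimate 0.21, SE 0.21). The wild type 6 day array was the brightest of the 8 for each of the 3, and the limma adjusted p-values at 6 days were 0.475, 0.658 and 0.645.

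Cox7a2l, a relative of Cox7a2 that joins complexes III and IV into supercomplexes, read 3815, 4437, 6304 and 6301 in wild type and 5994, 3336, 5627 and 6046 in the knockout (estimate 0.37, SE 0.28, limma adjusted p = 0.534). Its 6 day arrays differed by less than its control arrays. Cox6a2, the heart and muscle form of subunit VIa, exceeded the floor only on the knockout arrays at 3 days (172) and 6 days (237). In wild type fat it was under the floor on all 4 arrays, so it has no measured difference there. The 11 measured muscle genes (of 19 listed, 8 under the filter) summed to between 4318 on the knockout 8 hour array and 8797 on the wild type 6 day array, which are also the dimmest and the brightest arrays of most oxidative phosphorylation genes. In wild type the sums were 7554, 5973, 7339 and 8797 and in the knockout 7530, 4318, 5212 and 5205. By median log2 intensity about the gene mean, the muscle genes were alike on the knockout control (0.46) and the wild type 6 day array (0.47). The oxidative phosphorylation genes were at -0.09 and 0.69 on those arrays. The part of the muscle genes in the members' values was not tested.

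Cox7a1 and Cox8b, the brown fat and muscle isoforms that were left out of the set, differed by far more: Cox7a1 read 167, 812, 1779 and 8217 in wild type and 194, 196, 1193 and 2476 in the knockout, and Cox8b read 2377, 1691, 5767 and 20683 in wild type and 2182, 534, 3585 and 9680 in the knockout. At 6 days Cox7a1 rose by 4.63 (SE 0.54, limma adjusted p = 0.0364) and Cox8b by 2.64 (SE 0.36, adjusted p = 0.0457) on the log2 scale, where 0 of the 67 members passed. The wild type control of Cox7a1 lies under the floor of 171 and was set to it, so the size of its rise rests on the floor.

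Complex V, the ATP synthase, had a wild type median of 0.76 at 6 days, from 0.00 to 1.22, with 10 of the 14 genes 1.5-fold above control, and a knockout median of 0.22, from -0.91 to 1.53. Its 8 hour medians were 0.01 in wild type and -0.04 in the knockout. Atp5pb, subunit b of the peripheral stalk, and Atp5d, the δ subunit of the central stalk, had the largest estimates. Atp5pb read 900, 883, 1347 and 1796 in wild type and 372, 843, 882 and 1078 in the knockout, with an estimate of 1.27 at 6 days (SE 0.30, limma adjusted p = 0.122). Atp5d read 2851, 3917, 3653 and 6629 in wild type and 1450, 2833, 3247 and 3439 in the knockout, with an estimate of 1.23 (SE 0.26, adjusted p = 0.0924). For both the knockout control was the dimmest of the 8 arrays. That array stands apart in the epididymis and testis genes and in the Gapdh ratio, and both estimates use it. On single arrays the 6 day difference was larger in the knockout for both genes. The other 3 probe sets of Atp5d differ from it there: at 6 days they were 0.82 to 1.36 above control in wild type and 0.17 to 0.61 in the knockout on the log2 scale, each higher in wild type.

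Atp5o, the stalk subunit that confers sensitivity to oligomycin, read 8329, 9463, 11940 and 17270 in wild type and 8064, 6147, 10095 and 10790 in the knockout (estimate 0.74, SE 0.22, limma adjusted p = 0.178). Subunit c, which forms the rotating ring, is encoded by several genes with the same mature protein. Atp5g1 read 484, 433, 666 and 840 in wild type and 532, 317, 256 and 284 in the knockout, with its infused arrays on opposite sides of control. Atp5g2 read 1517, 1903, 2184 and 2517 in wild type and 1613, 1576, 2026 and 2217 in the knockout, above control at 3 and 6 days in both. The estimates at 6 days were -0.06 for Atp5g1 (SE 0.43, adjusted p = 0.968) and 0.59 for Atp5g2 (SE 0.18, adjusted p = 0.178).

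Atp5j, coupling factor 6 of the stalk, stayed near its control on every drug array. It read 8648, 7226, 8711 and 8631 in wild type and 7189, 6942, 7608 and 6671 in the knockout, and its estimate at 6 days was -0.06 (SE 0.18, limma adjusted p = 0.903). Ndufaf1 and Ndufaf4, assembly factors of complex I that the symbol rule also takes in, read 1428, 1193, 1908 and 2594 and 521, 654, 854 and 1009 in wild type. In the knockout they read 1152, 917, 1337 and 1389 and 281, 794, 476 and 663. The knockout control was the dimmest array for Ndufaf4, as it was for Atp5pb and Atp5d.

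The 8 genes that rose from 8 hours to 6 days were thus Ndufs1, Ndufa9 and Ndufv3 of complex I, Sdha and Sdhb of complex II, Uqcr11 and Uqcrc2 of complex III and Cox6b2 of complex IV, with 0 from complex V. That comparison does not use the control arrays except through the residual spread; with both left out, 3 passed as higher and 0 as lower (1.84% and 2.81% of all genes), namely Cox6b2, Ndufs1 and Sdhb (limma adjusted p = 0.0469, 0.0441 and 0.0488). Leaving out either control alone gives the same test as leaving out both, because the remaining control is then fitted exactly. It is no further check. Likewise, leaving out either 3 day array gives the same test. None of the 8 passed without either 8 hour array, either 3 day array or the wild type 6 day array (adjusted p from 0.0741 to 0.278). Without the knockout 6 day array 5 of the 8 passed, and Ndufs1, Sdhb and Uqcrc2 had adjusted p-values of 0.0522, 0.0694 and 0.0559.

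The genotypes lay close together on the control arrays and farther apart on the drug arrays. On the control arrays the median member of the knockout differed from wild type by -0.03 on the log2 scale, and 3 of the 67 were 1.5-fold lower (7.28% of all genes). The median difference was -0.37 at 8 hours, -0.34 at 3 days and -0.66 at 6 days, with 9, 11 and 44 members 1.5-fold lower (6.89%, 8.52% and 20.3% of all genes). At 6 days 65 of the 67 were lower in the knockout, the exceptions being Ndufs4 and Cox6a2, both measured just above the floor. All 3 drug times had the knockout under wild type for 60 members (25.5% of all genes). By complex, the 6 day medians were -0.71 for I, -0.58 for II, -0.71 for III, -0.58 for IV and -0.50 for V.

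**Figure D4:**
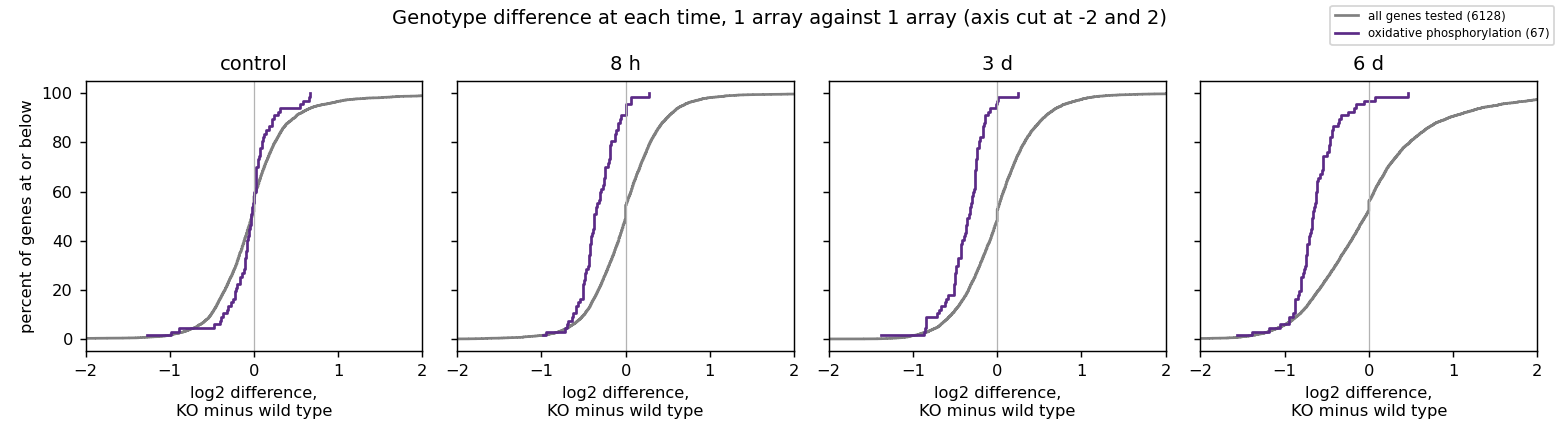
Cumulative share of genes by the log2 difference between the Ppara KO and the wild type array at each time (purple, 67 oxidative phosphorylation genes; grey, all 6128 tested genes; 1 array against 1 array, horizontal axis cut at -2 and 2). The curves lie together at control, where the members' median is -0.03, and the members lie to the left at 6 days, where it is -0.66.

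The difference between genotypes was tested with the 4 times as blocks, 4 arrays against 4. With limma no member passed, nor did any gene of the table (0% of all genes called). The median difference over the members was -0.36 against -0.01 over all genes, 64 of the 67 estimates were under 0, and 31 members were lower and 0 higher at an unadjusted p under 0.05 (10.1% of all genes lower). The lowest adjusted p was 0.285, for Ndufs1, with a difference of -0.58 (SE 0.13). Without the control arrays the median was -0.46, 41 members were lower at an unadjusted p under 0.05 (13.2% of all genes), and the lowest adjusted p was 0.19, still with 0 calls.

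Whether the drug changed the genotypes by different amounts was tested as an interaction, with 2 residual degrees of freedom. For all drug arrays against control 0 members and 0% of all genes passed. With limma, 6 members had an unadjusted p under 0.05, all in the direction of a lower knockout response (5.92% of all genes in that direction). Among them were Cox8c (-1.20, SE 0.28, limma adjusted p = 0.399) and Cox4i1 (-1.13, SE 0.32, adjusted p = 0.45). This comparison rests on both control arrays, and the knockout control had an epididymis and testis sum of 126616. Cox8c is an isoform known from testis, and the probe sets of Cox4i1 disagree. The part of such tissue in this comparison was not tested. For the infusion arrays against the rest 0 members and 0% of all genes passed, and 2 members had an unadjusted p under 0.05, a share like the 3.28% of all genes in that direction: Atp5g1 (-1.32, SE 0.31, adjusted p = 0.582) and Atp5k (-0.71, SE 0.27, adjusted p = 0.582). A different response of the genotypes was therefore not shown for any single member. On data simulated for these 6128 genes the additive fit recovered 34% of 2-fold changes at 8 hours and 28% at 6 days. Of 1.5-fold changes it recovered 6% and 0%. The simulated data held no difference in response between genotypes, and recovery by the interaction test was not measured.

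Macrophage, adipocyte, endothelium and muscle markers also separated the genotypes at 6 days. The summed intensity of 13 measured macrophage markers (of 14 listed) was 22154, 76209, 101137 and 36589 in wild type and 26351, 79459, 135104 and 183213 in the knockout. The adipocyte sum was 271407, 126988, 232793 and 244969 in wild type and 238034, 101308, 176288 and 176447 in the knockout. From 3 to 6 days the macrophage sum fell in wild type and rose in the knockout. The median oxidative phosphorylation gene rose in both, by 0.44 and 0.20 on the log2 scale. The sum of the 4 endothelium markers was 10294, 7662, 4426 and 9793 in wild type and 5363, 8377, 4769 and 4302 in the knockout. That list was thus already apart on the control arrays. The sum of the muscle markers at 6 days was 8797 in wild type and 5205 in the knockout. The sum of 6 measured brown fat markers (of 9 listed), which include Ucp1, Cox7a1 and Cox8b, was 5049, 29749, 20732 and 87759 in wild type and 4111, 11836, 14435 and 37375 in the knockout. None of the adipocyte, macrophage or endothelium markers lay under the filter, 1 brown fat and 8 muscle markers did, and their part in the genotype difference was not tested.

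**Figure D5:**
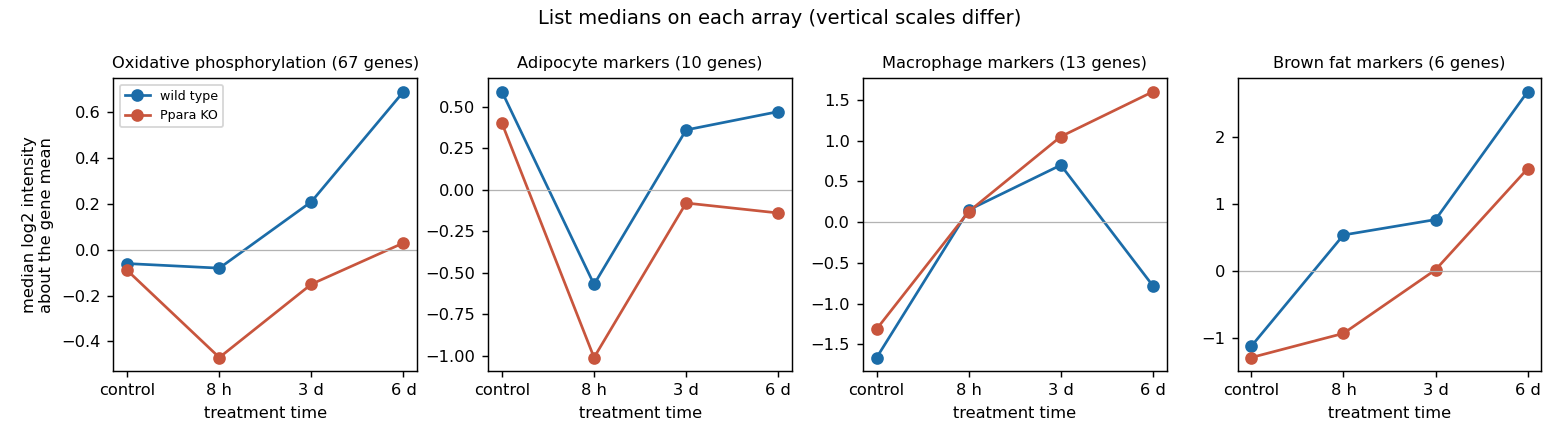
Median log2 intensity about the gene mean for the 67 oxidative phosphorylation genes and for the adipocyte, macrophage and brown fat marker lists on each array (blue, wild type; red, Ppara KO; 1 array per point; vertical scales differ between panels). At 6 days the oxidative phosphorylation median is 0.69 in wild type and 0.03 in the knockout, the macrophage median is -0.78 and 1.60, and the adipocyte median is 0.47 and -0.14.

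Other mitochondrial genes were read from 4 lists, whose counts are to be read against the shares of all genes called, which were 6.48% higher and 8.29% lower at 8 hours and 4.31% higher from 8 hours to 6 days. Among 9 measured regulators of respiratory genes (of 14 listed), Pprc1, a coactivator related to PGC-1α, rose at 8 hours by 1.02 (SE 0.23, limma adjusted p = 0.0368), and 0 regulators passed at 3 or 6 days. Pprc1 is dim: it read 177, 282, 124 and 86 in wild type and 109, 443, 164 and 190 in the knockout. The values under 171 were set to that floor, the knockout control among them, so the size of its rise rests on the floor. The list median against control at 6 days was 0.77 in wild type and 0.34 in the knockout on single arrays.

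Of 10 measured assembly factors (of 27 listed), 1 rose and 2 fell at 8 hours. Lrpprc, which stabilises mitochondrial messenger RNA, rose by 0.84 (SE 0.18, limma adjusted p = 0.0344). Surf1, an assembly factor of complex IV, fell by 0.92 on the log2 scale (SE 0.19, adjusted p = 0.031). Foxred1, an assembly factor of complex I, read 1983, 1015, 1999 and 3606 in wild type and 2352, 565, 1763 and 2077 in the knockout; it fell by 1.51 (SE 0.31, adjusted p = 0.0301) and then rose by 1.85 to 6 days (SE 0.31, adjusted p = 0.0259). The list medians at 6 days were 0.53 in wild type and -0.04 in the knockout.

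Among 13 measured carriers and inhibitors (of 19 listed), Sqor, which feeds electrons from sulphide to ubiquinone, and Nnt, the transhydrogenase of the inner membrane, fell at 8 hours, by 1.62 (SE 0.31, limma adjusted p = 0.0258) and by 1.29 (SE 0.27, adjusted p = 0.0308) on the log2 scale. From 8 hours to 6 days Sqor rose again by 1.36 (SE 0.31, adjusted p = 0.0489), and so did Etfb and Etfdh, which pass electrons from fatty acid oxidation to ubiquinone, by 1.23 (SE 0.25, adjusted p = 0.0368) and 1.56 (SE 0.29, adjusted p = 0.0319). Ucp1 rose at all 3 times, by 5.48 at 8 hours (adjusted p = 0.00186), 4.31 at 3 days (adjusted p = 0.0178) and 6.16 at 6 days (adjusted p = 0.00855). It read 381, 23779, 7219 and 36495 in wild type and 300, 9616, 6192 and 16088 in the knockout.

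A list of other mitochondrial genes, which takes in protein import, chaperones, membrane channels, cristae and fusion proteins and citrate synthase, had 15 measured genes (of 21 listed), of which 3 rose at 8 hours and 0 fell. Tomm40, the protein import channel of the outer membrane, rose by 1.96 (SE 0.18, limma adjusted p = 0.00456), and the chaperones Hspe1 and Hspa9 rose by 1.05 (SE 0.20, adjusted p = 0.026) and 0.96 (SE 0.19, adjusted p = 0.0266) on the log2 scale. The list median against control at 8 hours was 0.66 in wild type and 0.48 in the knockout, where the subunits had medians of -0.01 and -0.35. At 6 days it was 0.54 and 0.30, and Tomm40 alone of the list passed, at 1.44 (SE 0.18, adjusted p = 0.0384).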

How the data were processed

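RNA of 8 samples was measured on Affymetrix arrays, 1 per genotype and treatment. The deposited values are intensities on a linear scale for 12488 probe sets, of which 66 are array controls; how the authors computed and normalized them is not given in the sources used here, and the deposited intensities have nearly equal quantiles on all arrays. Of the values, 11.9% are below 0. Intensities under 171, the 40th percentile, were set to 171 before log2 was taken, so small differences of dim genes are understated. Platform annotation named the genes; 396 probe sets with several symbols were left out. Tests used limma (version 3.58.1, R 4.3.3) as the report states, and the scripts were tested on simulated data. No column of values was left unused (0).

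The members and gene lists were chosen with earlier results of these data known. Named genes are members that pass a test, the 3 largest and 2 smallest estimates per complex at 6 days, complex II, isoforms, Cycs, Cyc1, Cox7a1, Cox8b, Ucp1 and list genes that pass. Ndufs4, Uqcrq, Atp5k, Ndufb2, Ndufa10, Ndufaf1, Ndufaf4 and Alb were named after their values were seen. Alternatives tried were the floor, the filter, quantile normalization, other probe set rules, a moderated prior, the fit without genotype, other thresholds and references, and leaving out each array.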

Additional observations from a re-analysis of the deposited data

Results flagged for a closer look

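For 3 members every wild type drug array was above its control and every knockout drug array under its control, an order that 280 genes of the whole table share. That is 4.48% of the members and 4.57% of all tested genes, so the order is as frequent among all genes. The mean wild type log2 change minus the mean knockout change was 1.13 for Cox4i1, 0.92 for Uqcrc1 and 0.60 for Ndufb2, a subunit of the membrane arm of complex I. Ndufb2 read 10256, 11675, 11033 and 17707 in wild type and 11960, 8959, 10040 and 11434 in the knockout. A second bright probe set of Ndufb2 does not keep that order, with 8143 at 3 days against a wild type control of 8245 and 9116 at 6 days against a knockout control of 8604, and another, near the floor, read 194 in the wild type control and 52 at 6 days. The test of a different drug response by genotype was not passed by any of the 3 (limma adjusted p = 0.45 for Cox4i1, 0.497 for Uqcrc1 and 0.563 for Ndufb2).

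The annotation pairs 10 further probe sets with a member symbol and another symbol, and these were used in no comparison. Of them, 9 were above the floor on at least 2 arrays. At 6 days 4 were 1.5-fold above control in wild type and 0 in the knockout, with medians of 0.58 and 0.00 on the log2 scale.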

How the results depend on the processing

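The labels give no replicate numbers and each group holds 1 array, so no arrays were paired by replicate; the genotype test has the times as blocks. In none of the alternatives did a called value change sign. With the floor at the 25th percentile (50), 0 members were lower at 8 hours, 2 were higher from 8 hours to 6 days, 5 were 1.5-fold lower in wild type at 8 hours and 5 in the knockout at 3 days. Without the filter on dim probe sets, and without a genotype term, 0 members passed in either direction at 8 hours or from 8 hours to 6 days. The mean of all probe sets of a gene, and a prior with intensity trend and robust fit, each gave 1 call at 6 days against control, and the latter 20 from 8 hours to 6 days. Without both control arrays, chosen after seeing the data, that last count was 3. Without 1 array at a time, the calls ranged from 0 to 1 higher and 0 to 2 lower at 8 hours and from 0 to 6 from 8 hours to 6 days, and stayed at 0 in the other comparisons; the drug interaction could not be fitted without either control.

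At 2-fold in place of 1.5-fold, in wild type 1 gene was higher and 2 lower at 8 hours (8.08% and 7.91% of all genes). At 3 days 0 were higher or lower (5.58% and 5.71%), and after 6 days 14 were higher and 0 lower (3.56% and 4.03%). In the knockout 3 were higher and 3 lower at 8 hours (11.2% and 11%), and 2 higher and 1 lower at 3 days (8.62% and 6.97%). At 6 days in the knockout 4 were higher and 0 lower (9.45% and 8.13%). Set against wild type at 6 days, 4 members were lower in the knockout (5.76%). With the mean of both controls as reference, 6 members were 1.5-fold higher in wild type at 8 hours, 2 in the knockout at 8 hours and 2 at 3 days. With plain-suffix probe sets alone, chosen after seeing the data, 2 were higher in the knockout at 3 days and the complex V estimate at 6 days was 0.35; with all probe sets and no filter the complex IV estimate was 0.09. Without 1 array at a time the complex medians ranged, at 8 hours, 3 days and 6 days, over -0.56 to -0.04, -0.17 to 0.24 and 0.19 to 0.63 for I; -0.55 to -0.15, -0.13 to 0.27 and 0.28 to 0.69 for II; -0.28 to 0.33, -0.02 to 0.51 and 0.43 to 0.91 for III; -0.46 to 0.02, -0.26 to 0.40 and 0.03 to 0.43 for IV; and -0.10 to 0.14, 0.07 to 0.36 and 0.32 to 0.69 for V. The cause of these shifts was not tested. With 1 array per group, precision is limited by their number.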
